A study of Rattus norvegicus with 10 samples.

Results

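The matrix metalloproteinases (MMPs), their tissue inhibitors (TIMPs) and the ADAMTS family were examined in fetal rat hearts at embryonic day 19.5. They were taken as the gene symbols that start with Mmp, with Timp and a digit, or with Adamts. Mmp24os, a gene of other function that overlaps Mmp24, was left out. Of 18025 genes listed, 44 carried such a symbol, and 39 of these reached a mean of 0.1 FPKM (fragments counted on a gene, relative to its length and to the size of the library) over the 10 libraries. The 39 genes were 13 MMPs, 4 TIMPs, 17 ADAMTS proteases and 5 ADAMTS-like genes.

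The hearts were of wild-type Sprague-Dawley rats, in 5 libraries of a control (CON) group and 5 of a hyperglycemia (HG) group. All dams were 3 months old and were mated with normoglycemic males. HG dams were injected on 3 days with streptozotocin, which destroys the insulin-producing cells of the pancreas, in citric acid buffer, and were diabetic by blood glucose a week later. CON dams received the buffer alone. The labels give heart tissue as the source, while a legend of the study names isolated cardiomyocytes for the same comparison, a difference that bears on what genes of other cells mean here. The sources used here do not say whether the 5 hearts of a group came from separate litters, so that p-values measure the spread between these libraries. Fetal sex was not given either, and genes of the Y chromosome summed to above 38.0 FPKM in 2 CON and 2 HG libraries and to under 0.97 FPKM in the other 6.

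MMPs are zinc enzymes that cut collagens, gelatin, elastin and other proteins of the extracellular matrix. They are made as inactive precursors and are cut to their active form by other proteases, among them furin, plasmin and the membrane-bound MMPs. TIMPs bind to the active site of MMPs and block it, and Timp3 also inhibits several ADAMTS proteases. ADAMTS proteases are secreted enzymes that trim procollagens or cut large proteoglycans such as versican and aggrecan, and ADAMTS-like proteins share their ancillary domains but lack the protease domain. In the developing heart this machinery reshapes the cardiac jelly, the endocardial cushions, the valves and the interstitial collagen network.

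In CON, 17639895 to 18240006 reads fell on genes in a library, and in HG this depth was 16672876 to 19109844 reads. Hemoglobin genes held 2.27 to 4.21% of the FPKM in CON and 1.86 to 2.56% in HG. Summed markers of cardiomyocytes were at 27465 to 29005 FPKM in CON and 23540 to 27417 FPKM in HG, and those of fibroblasts at 1724 to 2010 FPKM and 1556 to 1785 FPKM, so that RNA of both cell types was present in every library. Liver markers, which a heart should lack, summed to 69.0 FPKM in CON library 3, to 2.31 to 6.95 FPKM in the other CON libraries and to 0.485 to 1.47 FPKM in HG, so that the groups did not overlap. In bulk RNA, fewer cells of a type and less RNA per cell cannot be told apart.

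The matrix protease genes moved in both directions in HG hearts. With limma on log2(FPKM + 0.1) and a Benjamini-Hochberg adjusted p under 0.05 over all 14542 genes tested, 16 of the 39 members were called, 10 higher and 6 lower in HG, and 23 were not called. The share of called members was 41.0%, against 40.1% of all genes tested. Higher calls were 25.6% of the members against 28.4% of all genes, and lower calls were 15.4% against 11.8%, so that these counts lay near the background. The groups of libraries did not overlap in 12 members (30.8%), of which 9 were higher and 3 lower in HG, and in 27.4% of all genes. Timp4 and Mmp12 also passed a log2 fold change of 1 in size, which is 5.13% of the members against 1.94% of all genes. The median log2 fold change was 0.05 over the members and 0.09 over all genes tested.

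**Figure D1:**
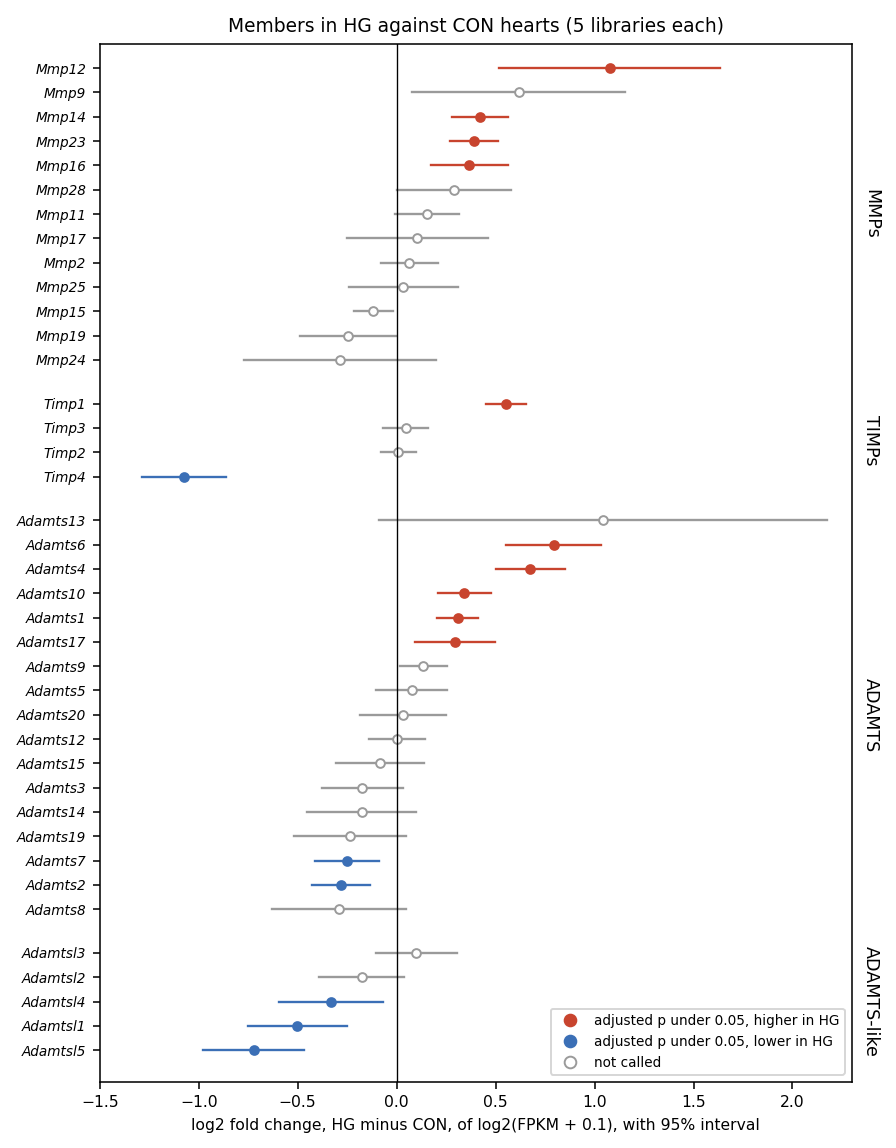
Log2 fold change (HG minus CON) of log2(FPKM + 0.1) for the 39 members, with 95% intervals from limma, ordered within MMPs, TIMPs, ADAMTS proteases and ADAMTS-like genes; filled red points were called higher, filled blue points lower, and open points were not called. The 4 MMPs that were called lie to the right of 0, the 3 ADAMTS-like genes that were called lie to the left, and Timp1 and Timp4 lie on opposite sides.

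The balance of higher and lower calls depended on how the libraries were scaled. With the FPKM as deposited, 62.5% of the called members and 70.7% of all called genes were higher in HG. With median-of-ratios factors applied to the libraries, 9 called members were higher and 9 lower, and 47.1% of all called genes were higher. Quantile normalization also gave 9 and 9 members, and 53.0% of all called genes were higher. The median over all genes tested moved from 0.09 to 0.01 and 0.02 on the log2 scale with these scalings, and the median of the members to -0.04 and -0.03. Of the 16 called members, 13 were called in every one of the 23 alternative settings that tested them. The exceptions were Adamts17, Adamtsl4 and Adamts7, the last of which was lost in 1 setting.

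**Figure D2:**
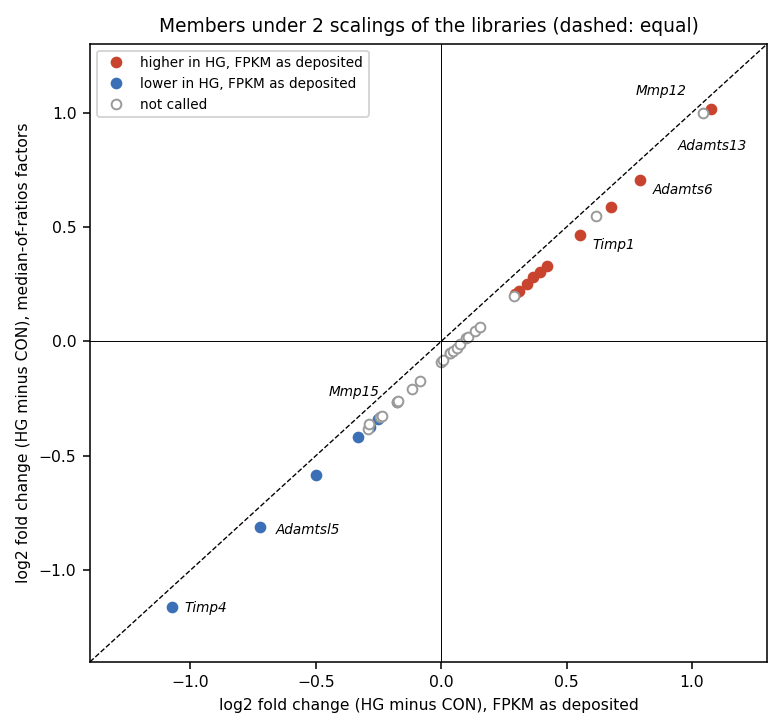
Log2 fold change (HG minus CON) of each member with the FPKM as deposited on the x axis and after division by median-of-ratios factors on the y axis; the dashed line marks equal values, and colours give the call with the FPKM as deposited. All points lie just below the line, Timp4 keeps the lowest and Mmp12 the highest value of the called members, and the points nearest to 0 change sign.

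The 4 tissue inhibitors went separate ways, as Timp1 rose, Timp4 fell and Timp2 and Timp3 were not called. Timp4, the inhibitor known for its high level in the heart, stood at 4.40, 3.73, 3.79, 4.83 and 4.27 FPKM in the CON libraries 1 to 5 and at 1.67, 2.15, 1.84, 2.21 and 1.85 FPKM in the HG libraries 1 to 5. Every HG library lay below every CON library. The means were 4.20 ± 0.454 and 1.94 ± 0.226 FPKM (SD, n = 5 each), and the log2 fold change was -1.07 (SE 0.0984, limma adjusted p = 9.31e-06). Between 115 and 151 reads stood behind a CON value and between 53 and 68 behind an HG value. Across the 23 alternatives the adjusted p of Timp4 lay between 5.62e-06 and 0.000239 and its log2 fold change between -1.17 and -0.82.

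Timp1, an inducible inhibitor of most soluble MMPs, moved the other way. It measured 30.2, 28.9, 29.8, 27.2 and 26.7 FPKM in the CON libraries and 41.2, 41.3, 45.2, 40.0 and 42.3 FPKM in the HG libraries, again without overlap. The means were 28.6 ± 1.54 and 42.0 ± 1.96 FPKM (SD, n = 5 each), a log2 fold change of 0.55 (SE 0.0462, limma adjusted p = 4.98e-06). Timp2, which inhibits MMPs and also takes part in the activation of Mmp2, was at 52.6, 53.2, 53.5, 50.4 and 46.6 FPKM in CON and at 51.9, 51.6, 50.6, 52.8 and 50.8 FPKM in HG. Its log2 fold change was 0.01 with a 95% interval from -0.08 to 0.10 (limma adjusted p = 0.878), and it turned to -0.08 with median-of-ratios factors. Timp3, which stays bound to the matrix, was at 41.8, 44.2, 47.6, 39.0 and 41.7 FPKM in CON and at 46.7, 45.4, 44.3, 42.3 and 42.4 FPKM in HG. Its log2 fold change of 0.05 had a 95% interval from -0.07 to 0.16 (limma adjusted p = 0.508), and it was -0.04 with median-of-ratios factors. All HG values of both genes lay within the range of the CON values.

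Timp1 and Timp4 can be set against each other within a library, where no scaling enters. Timp1 over Timp4 was 6.88 ± 0.956 in CON, with libraries from 5.64 to 7.86, and 21.9 ± 3.03 in HG, with libraries from 18.1 to 24.6 (SD, n = 5 each). Timp1 over Timp3 was 0.669 ± 0.0404 in CON and 0.951 ± 0.0583 in HG, and its ranges did not overlap either. These ratios were chosen after the values were seen and are given as a description with no test.

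**Figure D3:**
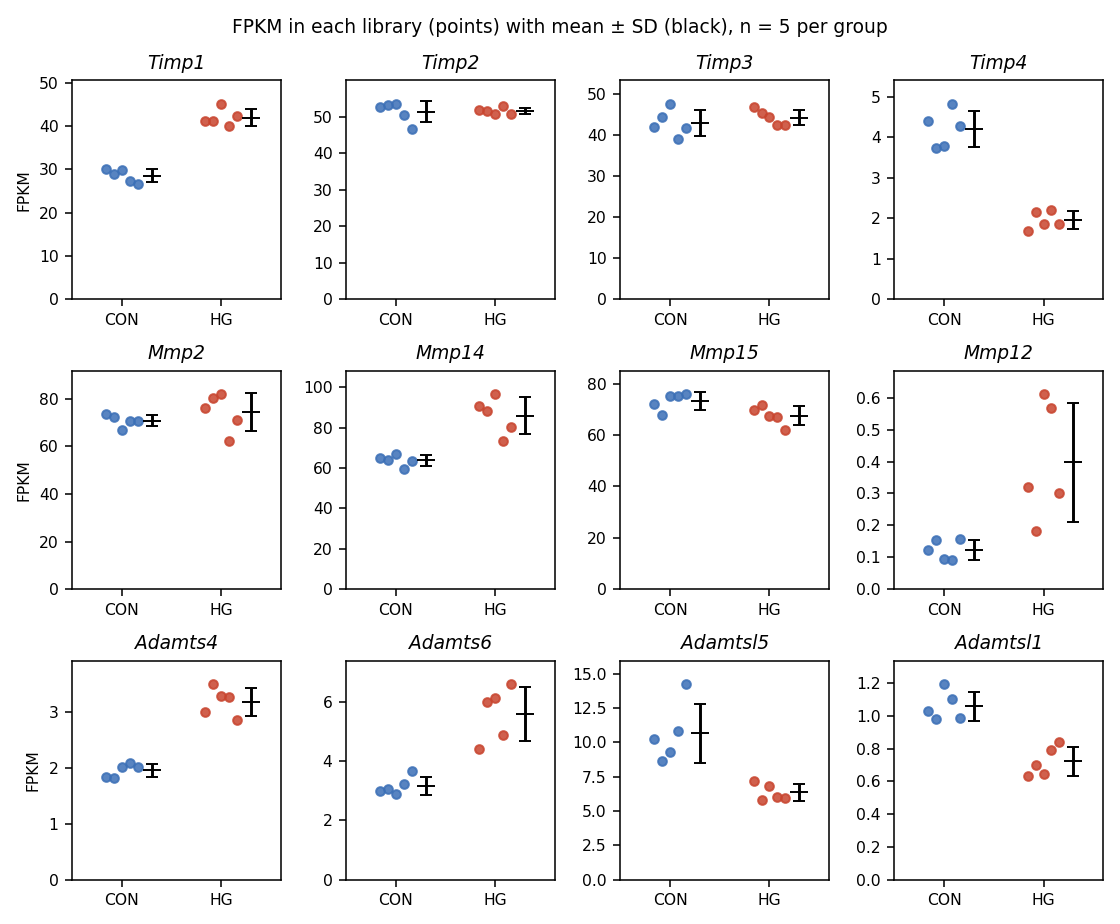
FPKM in each of 5 CON (blue) and 5 HG (red) libraries for 12 members, with the mean and SD in black beside the points; every y axis starts at 0. The CON and HG points do not overlap in Timp1, Timp4, Mmp14, Mmp12, Adamts4, Adamts6, Adamtsl5 and Adamtsl1, and they overlap in Timp2, Timp3, Mmp2 and Mmp15.

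3 of the 4 TIMP genes lie inside synapsin genes in the RefSeq annotation of the GRCr8 build, namely Timp1 in Syn1, Timp3 in Syn3 and Timp4 in Syn2. Syn2 rose from 0.960 ± 0.229 to 1.66 ± 0.172 FPKM (SD, n = 5 each; log2 fold change 0.75, limma adjusted p = 0.00166), opposite to Timp4. Syn3 rose from 0.319 to 0.525 FPKM (log2 fold change 0.58, limma adjusted p = 0.00787), and Syn1 was at 0.207 and 0.313 FPKM (limma adjusted p = 0.148). The libraries came from a stranded kit, but the strand setting of the counting is not given in the sources used here, and the share of reads that each pair could exchange was not tested.

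The sequence just upstream of Timp4 is shown because this gene fell the most of all members. RefSeq gives it on chromosome 4 of GRCr8, on the minus strand, at chr4:149985351-149985454. It runs 5′ to 3′ on the strand of the gene and ends where the annotated gene begins, and capitals mark a match to the PEA3 motif AGGAAG of ETS factors, read on the other strand.
Timp4: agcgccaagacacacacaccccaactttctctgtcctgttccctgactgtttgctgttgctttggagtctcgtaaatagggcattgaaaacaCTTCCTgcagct
The motifs were searched on both strands in windows of 250 bases before and 50 after each start, and 34.5% of all 33469 RefSeq windows hold this one.

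Among the MMPs, 4 of 13 (30.8%) rose in HG, near the 28.4% of all genes called higher, and 0 were called lower, although Mmp15 and Mmp19 were called lower with median-of-ratios factors. The most abundant ones were Mmp14, Mmp2 and Mmp15, with means over the 10 libraries of 74.8, 72.6 and 70.4 FPKM. Mmp14, the membrane-type MMP that cuts collagen at the cell surface and activates Mmp2, was at 65.1, 63.7, 67.1, 59.6 and 63.6 FPKM in the CON libraries and at 90.5, 88.2, 96.6, 73.3 and 80.3 FPKM in the HG libraries. It rose without overlap, from 63.8 ± 2.73 to 85.8 ± 9.09 FPKM (SD, n = 5 each; log2 fold change 0.42, SE 0.0657, limma adjusted p = 0.000385). The spread was wider in HG, where library 4 was the lowest.

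Mmp2, the gelatinase that Mmp14 activates, was at 73.6, 72.2, 67.1, 70.7 and 70.6 FPKM in CON and at 76.1, 80.4, 82.0, 62.2 and 71.1 FPKM in HG. Its HG values lay on both sides of the CON values, and its log2 fold change was 0.06 with a 95% interval from -0.08 to 0.21 (limma adjusted p = 0.475). Mmp15, a second membrane-type MMP, was at 71.9, 67.9, 75.1, 75.3 and 76.0 FPKM in CON and at 69.6, 71.6, 67.5, 67.2 and 61.8 FPKM in HG. The groups overlapped and the log2 fold change was -0.12 with a 95% interval from -0.22 to -0.02 (limma adjusted p = 0.0585), a difference that passed the threshold in 5 of the 23 alternatives, with an adjusted p of 0.00782 under median-of-ratios factors.

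The order of the 3 most abundant MMPs thus differed between the groups. Mmp14 was the lowest of the 3 in 5 of 5 CON libraries and the highest in 5 of 5 HG libraries, while Mmp15 was the highest in 3 CON libraries and Mmp2 in the other 2. Mmp15 was the lowest in 4 HG libraries and Mmp2 in 1. Mmp2 and Mmp15 themselves did not differ beyond their spread in CON, at 70.8 ± 2.43 and 73.2 ± 3.38 FPKM (SD, n = 5 each). Mmp14 over Mmp2 was 0.902 ± 0.0585 in CON and 1.15 ± 0.0392 in HG, Mmp14 over Mmp15 was 0.873 ± 0.0585 and 1.27 ± 0.123, and Mmp14 over Timp2 was 1.25 ± 0.0715 and 1.67 ± 0.194. The libraries of the groups did not overlap in these 3 ratios, which were also chosen after the values were seen.

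Mmp12, the metalloelastase known from macrophages, had the largest log2 fold change of the called members, and its level was close to the limit of 0.1 FPKM. It stood at 0.123, 0.153, 0.0949, 0.0920 and 0.158 FPKM in the CON libraries and at 0.321, 0.182, 0.611, 0.569 and 0.301 FPKM in the HG libraries, so that the groups did not overlap. Behind these values were 3 to 5 reads in a CON library and 6 to 19 in an HG library, a count at which a few reads move the level. The mean rose from 0.124 ± 0.0310 to 0.397 ± 0.185 FPKM (SD, n = 5 each), and the log2 fold change on the scale with 0.1 added was 1.08 (SE 0.256, limma adjusted p = 0.00553). HG libraries 3 and 4 were the highest, and the log2 fold change without them was 0.93 and 0.95 in turn. Mmp9, the other gelatinase, was as rare, at 0.333, 0.184, 0.266, 0.147 and 0.246 FPKM in CON and 0.596, 0.492, 0.521, 0.322 and 0.201 FPKM in HG. Its log2 fold change of 0.62 did not pass (SE 0.248, limma adjusted p = 0.0658), and the lowest HG value lay within the CON range.

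Markers of macrophages were also higher in part. Of 7 macrophage markers, 3 (42.9%) rose in HG and 0 were lower, beside 28.4% and 11.8% of all genes. Those that rose were Adgre1 (log2 fold change 1.00, limma adjusted p = 0.000661), Cd68 (0.59, adjusted p = 0.00358) and C1qa (0.25, adjusted p = 0.0277). Csf1r, C1qb, C1qc and Mrc1 were not called. The call of C1qa was lost in 8 of the 23 alternatives, among them median-of-ratios factors (limma adjusted p = 0.180). The sum of the 7 markers was 38.1 to 49.5 FPKM in CON and 46.7 to 59.0 FPKM in HG, with overlap. Of 4 neutrophil markers tested 0 rose and 1 fell, S100a9 (log2 fold change -1.33, limma adjusted p = 0.0140). The 6 neutrophil markers listed summed to 2.28 to 5.26 FPKM in CON and 0.634 to 4.04 FPKM in HG. The part of these cells in the levels of Mmp12 and Mmp9 was not tested.

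The window upstream of Mmp12 is shown because this gene has the largest rise, and because it alone of the called members with a RefSeq window matched the AP-1 motif TGANTCA. It lies on chromosome 8 of GRCr8, on the plus strand, at chr8:12866402-12866651. Capitals mark TGAGTCA and, closer to the gene, the TATA box TATAAA.
Mmp12: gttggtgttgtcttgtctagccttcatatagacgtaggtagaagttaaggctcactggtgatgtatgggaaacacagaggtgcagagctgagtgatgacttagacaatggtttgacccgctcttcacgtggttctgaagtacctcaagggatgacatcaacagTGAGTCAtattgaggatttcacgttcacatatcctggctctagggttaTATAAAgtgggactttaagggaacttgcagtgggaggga
Of all RefSeq windows, 7.33% hold the AP-1 motif and 14.2% the TATA box. Among the 33 of the 44 symbols with a window, AP-1 was matched in Mmp12 and in its neighbour Mmp13, the TATA box in 9 and the GC box GGGCGG in 20, against 33.1% of all windows for the last. A match names letters in a window and not a site of binding, and no binding was measured.

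The other MMPs that rose were Mmp23 and Mmp16. Mmp23, a membrane-anchored MMP, rose from 10.2 ± 0.659 to 13.4 ± 0.683 FPKM (SD, n = 5 each; log2 fold change 0.39, limma adjusted p = 0.000195), with CON libraries from 9.37 to 11.1 FPKM and HG libraries from 12.4 to 14.2 FPKM. Mmp16, a membrane-type MMP, rose from 1.16 ± 0.0653 to 1.52 ± 0.113 FPKM (log2 fold change 0.37, limma adjusted p = 0.00649), also without overlap. Mmp14 and Mmp16 were the only 2 of 6 membrane-type members called, since Mmp15, Mmp17, Mmp24 and Mmp25 were not. Mmp11, Mmp19 and Mmp28 were not called, with log2 fold changes of 0.15, -0.24 and 0.29. Of the interstitial collagenases, Mmp13 had at most 1 read in a library and Mmp8 at most 5, and both lay below the limit.

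**Figure D4:**
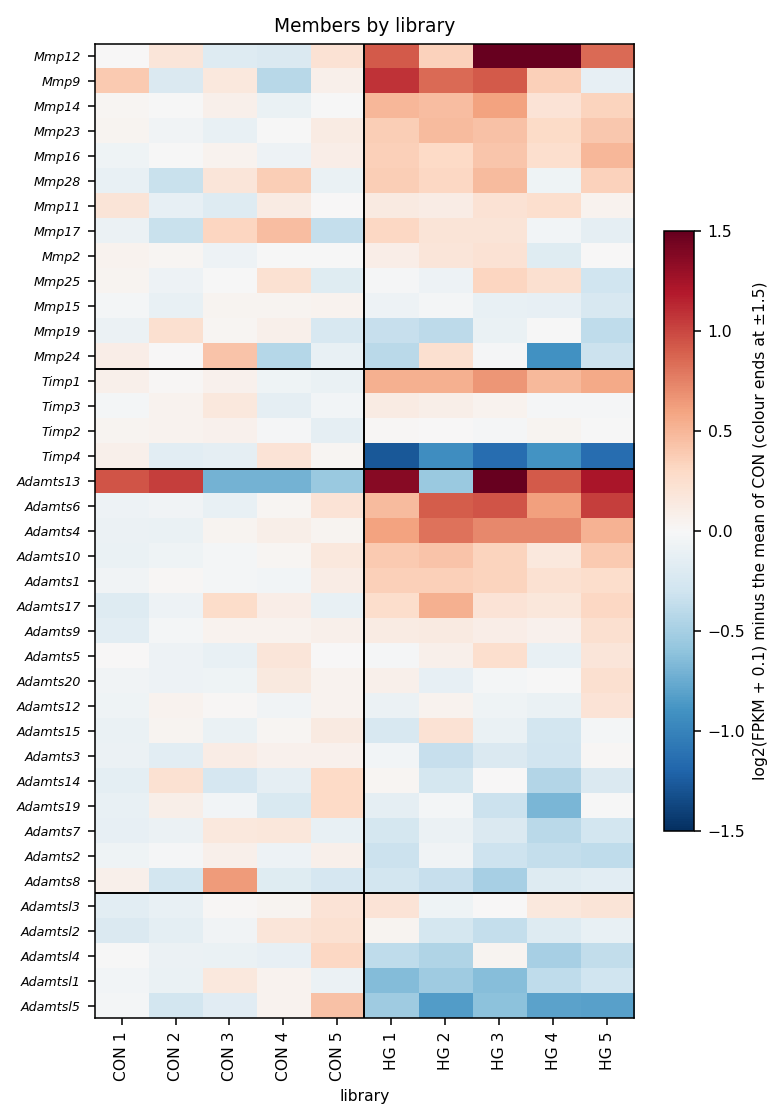
Level of each of the 39 members in each library, as log2(FPKM + 0.1) minus the mean of the 5 CON libraries, with red for higher and blue for lower values and colours ending at 1.5 in size; the vertical line parts CON from HG and horizontal lines part the families. Timp1, Mmp14, Mmp23, Adamts4 and Adamts6 are red in all HG libraries, Timp4 and Adamtsl5 are blue in all of them, and Adamts13 is uneven within both groups.

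Among the ADAMTS proteases, 5 of 17 (29.4%) rose and 2 (11.8%) fell, close to the 28.4% and 11.8% of all genes, while with median-of-ratios factors Adamts17 was not called and Adamts3 was called lower. The largest rise was in Adamts6, a protease linked to fibrillin-1 and to cell junctions, at 3.00, 3.05, 2.91, 3.22 and 3.66 FPKM in CON and 4.43, 6.0, 6.15, 4.89 and 6.61 FPKM in HG. The groups did not overlap, and the mean went from 3.17 ± 0.298 to 5.62 ± 0.917 FPKM (SD, n = 5 each; log2 fold change 0.79, SE 0.110, limma adjusted p = 0.000169). Adamts4, an aggrecanase that also cuts versican, was at 1.83, 1.82, 2.02, 2.09 and 2.01 FPKM in CON and at 3.01, 3.50, 3.30, 3.27 and 2.85 FPKM in HG. It too rose without overlap, from 1.96 ± 0.120 to 3.19 ± 0.255 FPKM (log2 fold change 0.68, SE 0.0798, limma adjusted p = 5.75e-05).

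The sequences upstream of Adamts4 and Adamts6 are shown because these were the ADAMTS proteases that rose the most. They lie on the plus strand of GRCr8 at chr13:86202761-86203010 and chr2:37155038-37155259, and capitals mark the PEA3 motif AGGAAG in the first. None of the 4 motifs was found in the second.
Adamts4: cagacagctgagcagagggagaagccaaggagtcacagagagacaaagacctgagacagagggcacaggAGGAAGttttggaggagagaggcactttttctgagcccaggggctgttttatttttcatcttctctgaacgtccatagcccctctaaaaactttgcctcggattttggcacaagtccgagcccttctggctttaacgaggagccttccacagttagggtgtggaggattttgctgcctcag
Adamts6: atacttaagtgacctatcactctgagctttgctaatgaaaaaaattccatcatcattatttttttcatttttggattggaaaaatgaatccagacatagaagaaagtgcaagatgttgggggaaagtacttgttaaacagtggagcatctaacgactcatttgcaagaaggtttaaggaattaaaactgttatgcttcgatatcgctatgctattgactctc
PEA3 was matched in 12 of the 33 windows of the families, beside 34.5% of all windows.

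Of the 7 proteoglycan-cutting members, 2 (28.6%) rose and 0 fell, beside 28.4% and 11.8% of all genes. Besides Adamts4 this was Adamts1, a versican-cutting protease of the developing heart, which went from 11.0 ± 0.515 to 13.6 ± 0.568 FPKM (SD, n = 5 each; log2 fold change 0.31, limma adjusted p = 0.000345) without overlap. Adamts5, its neighbour on chromosome 11 and also a versican-cutting protease, was at 4.20 ± 0.340 and 4.44 ± 0.448 FPKM and was not called (log2 fold change 0.08, 95% interval -0.10 to 0.25). Adamts4 over Adamts5 within a library was 0.467 ± 0.0351 in CON and 0.724 ± 0.0969 in HG, with no overlap and again chosen after the values were seen. Adamts9, Adamts15, Adamts20 and Adamts8 were not called, with log2 fold changes of 0.13, -0.08, 0.03 and -0.29.

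Of the 3 procollagen N-proteinases, which trim the ends of fibrillar procollagens, Adamts2 fell from 10.4 ± 0.557 to 8.52 ± 0.841 FPKM (SD, n = 5 each; log2 fold change -0.28, limma adjusted p = 0.00552). Its groups overlapped, since HG library 2 was at 9.99 FPKM and the other HG libraries were at 7.94 to 8.34 FPKM. Adamts3 and Adamts14 were not called, at log2 fold changes of -0.17 and -0.18.

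Among the other ADAMTS proteases, Adamts10 and Adamts17, both linked to fibrillin microfibrils, rose. Adamts10 went from 16.1 ± 1.15 to 20.4 ± 1.47 FPKM (SD, n = 5 each; log2 fold change 0.34, limma adjusted p = 0.00101) without overlap. Adamts17 went from 7.43 ± 1.02 to 9.11 ± 0.934 FPKM with overlap (log2 fold change 0.30, limma adjusted p = 0.0245), a call lost in 7 of the 23 alternatives, among them median-of-ratios factors (adjusted p = 0.112), quantile normalization and the fits without CON library 1, 2 or 5 or HG library 2. Adamts7, which cuts cartilage oligomeric matrix protein, fell from 17.3 ± 1.86 to 14.5 ± 1.13 FPKM (log2 fold change -0.25, limma adjusted p = 0.0192), with overlap. Adamts10 over Adamts7 was 0.938 ± 0.120 in CON and 1.41 ± 0.0657 in HG without overlap, chosen after the values were seen. Adamts12 and Adamts19 were not called, with log2 fold changes of 0.00 and -0.23.

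Of the 5 ADAMTS-like genes, 3 fell and 0 rose, where 11.8% of all genes fell and 1 of the 3 calls, that of Adamtsl4, was lost in 12 of the 23 alternatives, and their median log2 fold change was -0.33 against 0.09 over all genes tested. Adamtsl5 had the largest fall, at 10.3, 8.64, 9.29, 10.8 and 14.2 FPKM in CON and at 7.19, 5.82, 6.81, 5.99 and 5.93 FPKM in HG. Every HG value lay below every CON value, although CON library 5 was far above the other 4. The means were 10.7 ± 2.18 and 6.35 ± 0.613 FPKM (SD, n = 5 each; log2 fold change -0.72, SE 0.117, limma adjusted p = 0.000498).

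Adamtsl1 was less abundant, at 1.03, 0.984, 1.19, 1.10 and 0.990 FPKM in CON and 0.635, 0.698, 0.645, 0.790 and 0.842 FPKM in HG. It fell without overlap (log2 fold change -0.50, SE 0.114, limma adjusted p = 0.00426). Adamtsl4, a fibrillin-binding protein, was at 2.41, 2.28, 2.25, 2.23 and 3.05 FPKM in CON and at 1.85, 1.75, 2.50, 1.69 and 1.86 FPKM in HG. It also fell (log2 fold change -0.33, SE 0.120, limma adjusted p = 0.0441), but HG library 3 lay above 4 of the CON libraries. Adamtsl2 and Adamtsl3 were not called, with log2 fold changes of -0.18 and 0.10.

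Summed over the 39 members, the FPKM were 494.7 to 514.7 in CON and 501.8 to 565.4 in HG, with overlap. Mmp14, Mmp2, Mmp15, Timp2, Timp3 and Timp1 held 63.9 to 67.0% of this sum in CON and 66.0 to 68.3% in HG. The 3 members just above the limit of 0.1 FPKM were Adamts13, Mmp12 and Mmp9, at means of 0.198, 0.261 and 0.331 FPKM. The mean of Adamts13 in CON alone was 0.0929 FPKM, below the limit. Just below it were Adamts18, Mmp8 and Adamts16, at 0.0896, 0.0793 and 0.0233 FPKM, and Mmp13 and Mmp21 had at most 1 read in any library.

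The genes that switch on, block or clear these proteases were counted in a list of 22 tested genes, of which 8 (36.4%) rose and 1 (4.55%) fell, beside 28.4% and 11.8% of all genes. The median log2 fold change of the list was 0.13. The largest rise was in Reck, a membrane-anchored inhibitor of Mmp14, Mmp2 and Mmp9, from 7.63 ± 0.268 to 10.7 ± 0.776 FPKM (SD, n = 5 each; log2 fold change 0.48, limma adjusted p = 5.91e-05). Lrp1, a receptor that clears proteases and their complexes, went from 11.2 ± 0.472 to 14.6 ± 1.08 FPKM (log2 fold change 0.37, limma adjusted p = 0.000305). Plat, the tissue plasminogen activator, went from 73.9 ± 1.46 to 94.8 ± 10.8 FPKM (log2 fold change 0.35, limma adjusted p = 0.00122). These 3 genes did not overlap between the groups. Bsg, which induces MMPs in neighbouring cells, fell from 344 ± 14.7 to 292 ± 20.4 FPKM without overlap (log2 fold change -0.24, limma adjusted p = 0.00257). Ctsb and Adam10 had the smallest rises that were called, at log2 fold changes of 0.13 and 0.14, and these calls were lost in 14 and 3 of the 23 alternatives. With median-of-ratios factors, 5 genes of this list rose in place of 8. Over all genes, 47.1% of 4822 called genes were then higher, in place of 70.7% of 5836.

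Of 17 tested genes of collagen maturation, 5 (29.4%) rose and 2 (11.8%) fell, close to the shares of all genes. The median log2 fold change of this list was 0.03. Loxl3 and Loxl2, which crosslink collagen, rose from 3.49 ± 0.315 to 5.19 ± 0.537 FPKM and from 18.0 ± 0.979 to 25.7 ± 3.61 FPKM (SD, n = 5 each; log2 fold changes 0.56 and 0.50, limma adjusted p = 0.000401 and 0.000822). The prolyl hydroxylase subunits differed in direction, as P4ha3 rose from 9.24 to 12.2 FPKM (log2 fold change 0.40) and P4ha2 fell from 14.9 to 12.0 FPKM (log2 fold change -0.32), both without overlap. Serpinh1, the collagen chaperone, fell from 680 ± 24.9 to 588 ± 34.9 FPKM (log2 fold change -0.21, limma adjusted p = 0.00335). Plod3, a lysyl hydroxylase, had the smallest rise called, at 0.15, which was lost in 3 of the 23 alternatives, and that of Serpinh1 in 1. With median-of-ratios factors 3 genes of this list rose in place of 5, while 47.1% of all called genes were higher in place of 70.7%.

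Of 25 tested substrates, 5 rose and 5 fell, where 28.4% of all genes rose and 11.8% fell, with a median log2 fold change of -0.10. Vcan, which encodes versican, the proteoglycan of the cardiac jelly and valves that Adamts1, Adamts4 and Adamts5 cut, had the largest rise. It was at 28.3, 29.2, 28.5, 28.8 and 31.9 FPKM in CON and at 57.0, 52.5, 57.4, 51.1 and 54.2 FPKM in HG (log2 fold change 0.89, SE 0.0456, limma adjusted p = 2e-07). Fbn2, a fetal fibrillin, and Fn1, fibronectin, rose from 33 ± 1.43 to 46.4 ± 5.44 FPKM and from 125 ± 4.49 to 175 ± 20.2 FPKM (SD, n = 5 each; log2 fold change 0.48 for both, limma adjusted p = 0.000189 and 0.000225). These 3 genes did not overlap between the groups.

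Other substrates fell. Col3a1 and Dcn did so at a log2 fold change of -0.22 each (limma adjusted p = 0.00464 and 0.0139). Both calls held in all 23 alternatives, and library 4 was not the lowest of its group in either gene. In Acan, Lum and Eln, library 4 of each group stood apart. Acan, which encodes aggrecan, was at 1.44, 1.33, 1.37, 0.246 and 1.41 FPKM in CON and at 0.404, 0.572, 0.446, 0.0410 and 0.493 FPKM in HG (log2 fold change -1.35, SE 0.486, limma adjusted p = 0.0421). This call was lost in 12 of the 22 alternatives that tested Acan, 7 of them with 1 library left out, with an adjusted p of up to 0.0900. Lum, the collagen-binding proteoglycan lumican, was at 55.8, 56.1, 59.5, 34.1 and 58.4 FPKM in CON and at 41.1, 36.2, 39.4, 23.0 and 36.1 FPKM in HG (log2 fold change -0.58, limma adjusted p = 0.0179). Eln, which encodes elastin, was at 368, 389, 265, 47.2 and 330 FPKM in CON and at 130, 203, 131, 38.6 and 132 FPKM in HG, and was not called (log2 fold change -1.01, limma adjusted p = 0.175), although it was lower in HG without CON library 4 (limma adjusted p = 0.0064) and without both libraries numbered 4 (limma adjusted p = 0.000422). In each group library 4 was the lowest in all 3 genes, and HG library 4 was also the lowest HG library in Mmp14 and Mmp2. Postn, periostin, fell from 216 ± 17.5 to 180 ± 26.6 FPKM (SD, n = 5 each; log2 fold change -0.27, limma adjusted p = 0.0372), a call lost in 11 of the 23 alternatives, 7 of them with 1 library left out. Without both libraries numbered 4, a setting added after the data were seen, 11 members were higher and 4 lower in HG. There 6 substrates rose and 7 fell, and 5169 of all genes were called in either direction in place of 5836. With median-of-ratios factors 11 substrates fell in place of 5. The calls over all genes shifted too, as 47.1% of 4822 called genes were higher in place of 70.7% of 5836.

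**Figure D5:**
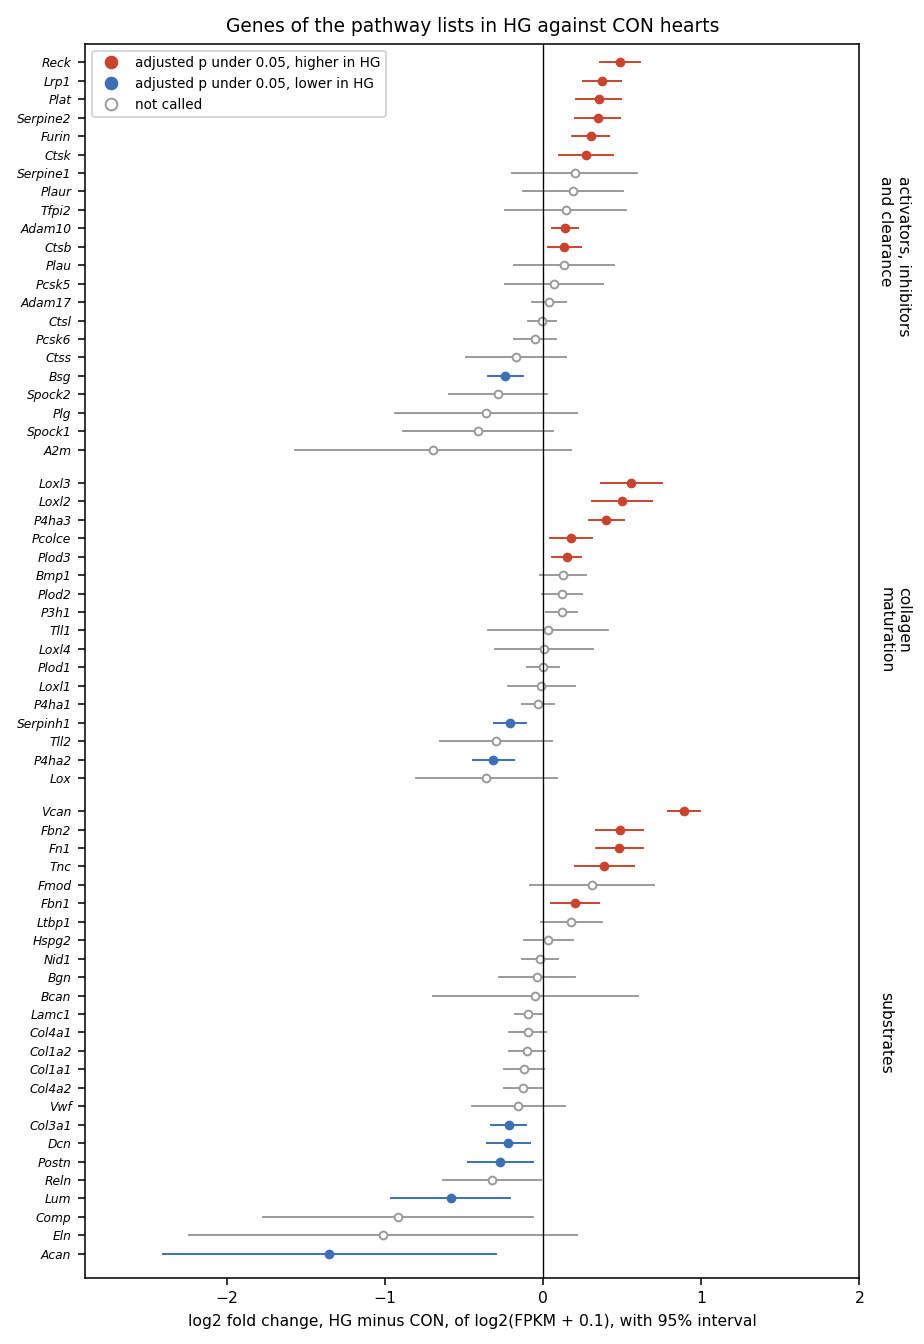
Log2 fold change (HG minus CON) of log2(FPKM + 0.1), with 95% intervals from limma, for the tested genes of 3 lists: activators, inhibitors and clearance (22 genes), collagen maturation (17 genes) and substrates (25 genes). Filled red points were called higher, filled blue points lower, and open points were not called. Vcan and Reck lie to the right of 0 with narrow intervals, and Eln, Acan and A2m have the widest intervals.

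Part of the marker genes of the cells that carry this machinery moved as well. Beside 28.4% of all genes called higher and 11.8% called lower, of 8 fibroblast markers 2 rose and 4 fell. Pdgfra (log2 fold change 0.29) and Tcf21 (0.25) rose, both without overlap. Col3a1, Dcn, Postn and Lum fell, and they were also counted among the substrates. The sum of the list was lower at the median in HG, at 1688 FPKM against 1889 FPKM in CON, with overlap. Col1a1, Col1a2 and Col3a1 made up most of it. Of 5 endocardial and valve markers 3 rose and 0 fell, namely Npr3 (log2 fold change 0.52), Twist1 (0.46) and Nfatc1 (0.45), and their sum was 28.9 to 34.6 FPKM in CON and 33.8 to 45.2 FPKM in HG. Of 6 mural cell markers 2 rose and 2 fell, and their sum was 701 to 814 FPKM in CON and 859 to 1088 FPKM in HG without overlap. Acta2 made up most of that sum, with means of 538 and 673 FPKM. Of 6 epicardial markers 2 rose, Tbx18 (log2 fold change 0.52) and Aldh1a2 (0.40), and 1 fell, Upk1b (-0.71, lost in 5 of 22 alternatives). The sum of the 6 was 29.2 to 34.0 FPKM in CON and 35.0 to 42.2 FPKM in HG without overlap. Most of it came from Tbx18, with means of 9.38 and 13.6 FPKM, and Aldh1a2, with means of 10.7 and 14.1 FPKM. The median log2 fold change of the epicardial list was -0.11. Of 6 endothelial markers 2 rose, 0 fell and 4 were not called, with a median log2 fold change of 0.05. Their sum was 248 to 270 FPKM in CON and 257 to 279 FPKM in HG, with overlap. Of 8 cardiomyocyte markers 5 fell and 1 rose. The part of these cells in the levels of the members was not tested.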

How the data were processed

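RNA of fetal heart tissue was made into libraries with a stranded mRNA kit, and the authors deposited FPKM, which are read numbers divided by gene length and library size. The submitters' processing notes name fastp, HISAT2, HTSeq, R 3.2.0 and the genome build mRatBN7.2, and the strand setting of the counting is not given in the sources used here. All per-sample columns were used (0 unused). The study's methods speak of pooled RNA of the samples at library construction, but no 2 libraries of the deposited table hold the same values.

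The steps between the deposited FPKM of a gene gave back whole reads in 100% of the genes (within 0.02 of a whole number), and with them the depth. Depth was 17639895 to 18240006 reads on genes in CON and 16672876 to 19109844 in HG. A level of 0.1 FPKM then rests on a few reads.

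Tables were handled in Python 3.11.15 (pandas 2.3.3, numpy 2.4.6). The test was run by limma 3.58.1 in R 4.3.3 on log2(FPKM + 0.1) of every gene that averaged 0.1 FPKM or more (5 CON against 5 HG libraries, no covariate, trend on expression, two-sided, Benjamini-Hochberg over 14542 genes). Fold changes on this scale understate those of rare genes. The study's count test was not run, and the recovered reads were tested by voom as an alternative. In simulated data with 196 changed genes tested, 190 were called. Whether differences as small as those of most called members would be found as often was not tested. Members and gene lists were chosen with earlier results of these data known. Values of every library are given for members past a log2 fold change of 1, the 4 called members with the largest and the 4 with the smallest fold change, the 5 most abundant, the TIMPs, Mmp2, Mmp9 and Mmp14. In each list the 3 called genes with the largest and the 3 with the smallest fold change are named, and Vcan. Eln, Col3a1, Dcn, the marker genes and the overlapping genes were named after their values were seen. Of the overlapping genes, 1 is not reported here.

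The 23 alternatives changed 1 choice each. They covered the pseudocount (1 or 0.01), the filter (none or 1 FPKM), the scaling (quantile normalization, median-of-ratios factors, or values without the hemoglobin genes), the model (no trend, array weights, voom on the recovered reads) and the terms of the model (the summed level of Y genes, or the replicate number as a block). In addition every library was left out once, and, added after the data were seen, both libraries numbered 4 together. Upstream sequences and gene overlaps are those of RefSeq on GRCr8, a later build than that of the files, where 44 of the 44 symbols matched a gene and 33 had a window. Only the bases before the annotated gene are printed.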

Additional observations from a re-analysis of the deposited data

Results flagged for a closer look

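In 78 groups of 5 libraries (39 members in CON and in HG), the library farthest from the rest was compared with the range of its group, and chance flags about 1 in 20 such groups. There were 3 flags, of a gap above 0.71 of the range. Adamts2 in HG had its highest value in library 2, at 9.99 FPKM against 7.94 to 8.34 FPKM in the other 4, a gap of 0.804 of the range. Adamtsl4 in CON had its highest value in library 5, at 3.05 FPKM against 2.23 to 2.41 FPKM, a gap of 0.773 of the range. Adamtsl4 in HG had its highest value in library 3, at 2.50 FPKM against 1.69 to 1.86 FPKM, a gap of 0.783 of the range. Without CON library 5 the log2 fold change of Adamtsl4 was -0.25 (limma adjusted p = 0.103).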

How the results depend on the processing

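The count of members called higher was 10 and lay between 9 and 11 in the 23 alternatives, and the count called lower was 6 and lay between 4 and 9, the latter with median-of-ratios factors and quantile normalization. The count past a log2 fold change of 1 was 2, and it was 0 with a pseudocount of 1, where Timp4 stood at -0.82 and Mmp12 at 0.30. It was 1 with a filter at 1 FPKM, which does not test Mmp12, with quantile normalization, and without both libraries numbered 4. It lay between 1 and 3 with 1 library left out. The third was Adamts13 without HG library 2, a gene that reached the limit of 0.1 FPKM only through the HG libraries. The log2 fold change of Timp2 turned from 0.01 to -0.0813 with median-of-ratios factors, -0.0384 after quantile normalization, -0.0059 without hemoglobin genes and -0.0053 without both libraries numbered 4, and it lay between -0.0245 and 0.0252 with 1 library left out, the lowest without CON library 5. Timp3 turned to -0.0438 and Mmp2 to -0.0270 with median-of-ratios factors. None of these 3 genes was called in any setting. Over all genes tested, the replicate numbers did not pair the libraries. The correlations of same-numbered deviations were 0.108, -0.0749, -0.126, -0.0276 and 0.0144, and no library correlated best with its own number. Single genes can differ from this, as library 4 was the lowest of each group in Acan, Lum and Eln. With the replicate number as a block, 9 members were called higher, 6 lower and 2 past a log2 fold change of 1. Adamts17 and Adamtsl4 were lost and Adamts19 was gained. The substrate Eln was called lower with the block (limma adjusted p = 0.0016), and the adjusted p was 0.000148 for Lum and 0.000424 for Acan. For Mmp15 the adjusted p lay between 0.00782 and 0.165 in the alternatives and for Mmp9 between 0.0133 and 0.151. Reads limit the rare members most, since Mmp12 rested on 3 to 19 reads per library and Mmp9 on 8 to 34. The causes were not tested.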

Other observations

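Adamts13, the protease that cuts von Willebrand factor, was uneven within both groups. It was listed at 0.216, 0.237, 0, 0 and 0.0116 FPKM in the CON libraries, or 19, 21, 0, 0 and 1 reads, and at 0.323, 0.0112, 0.688, 0.210 and 0.284 FPKM in the HG libraries, or 30, 1, 58, 18 and 23 reads. Its mean was 0.0929 FPKM in CON and 0.303 FPKM in HG, so that it reached the limit of 0.1 FPKM only through the HG libraries. It was not called (log2 fold change 1.04, SE 0.520, limma adjusted p = 0.131). Without HG library 2, where it had 1 read, it was called, which is given as a description only. Its neighbour Cacfd1, which it overlaps in RefSeq, was at 7.48 to 7.74 FPKM in CON and 6.54 to 7.84 FPKM in HG.

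Adamts15 and Adamts8 lie next to each other on chromosome 8, and neither was called. Adamts8, a protease that also inhibits blood vessel growth, was at 5.67 FPKM in CON library 3 and at 2.98 to 3.81 FPKM in the other CON libraries. CON library 3 was also the library with the highest sum of liver markers, at 69.0 FPKM, and whether the values are linked was not tested.

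Mmp11 overlaps Chchd10, a mitochondrial gene that fell from 402 ± 13.2 to 290 ± 31.2 FPKM (SD, n = 5 each; limma adjusted p = 0.000173), while Mmp11 was at 9.94 ± 1.10 and 11.0 ± 0.601 FPKM. The GO term metalloendopeptidase activity, as the authors attached it, was on 33 of the 39 members, and missing from the 4 TIMPs, Adamtsl1 and Mmp25, so that it was also on 4 ADAMTS-like genes that lack the protease domain.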
